A study of Mus musculus with 6 samples.

Results

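The mitochondrial genome transcripts are the 37 genes of the 57180 in the deposited table whose gene name starts with mt-. They comprise 13 mRNAs, 2 rRNAs and 22 tRNAs. The libraries hold RNA of lymphocytes isolated from tumors of mice that carried Hepa1-6, a mouse hepatoma cell line. All mice had been injected into the tail vein with the TREND system, which carried plasmids encoding CasRx, a CRISPR nuclease that cuts RNA. The plasmids held either a guide against SLC43A2, a membrane carrier for methionine and other large neutral amino acids (SLC43A2 sgRNA, 3 libraries), or a mock guide (Mock sgRNA, 3 libraries). The comparison asks how the RNA of the isolated lymphocytes differed between the guides. The labels give no strain, age or sex, and do not say whether a library is a single mouse or a pool, so p-values measure the spread between these libraries, which may be technical.

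Mitochondrial DNA is a small circle that is transcribed from both strands into long RNAs carrying many genes. In mammals these precursors are cut at the tRNAs that lie between most of the mRNAs and rRNAs, which releases the single transcripts. Most of the mRNAs then receive short poly(A) tails. The rRNAs form the core of the mitochondrial ribosome, the tRNAs decode the mRNAs, and the mRNAs encode membrane subunits of the respiratory chain and of ATP synthase, whose other subunits come from nuclear genes. In T cells, activation is known to be accompanied by growth of the mitochondria. In the annotation (GENCODE M21, mouse build GRCm38) 28 of the 37 genes lie on the plus strand of chromosome M, and mt-Nd6 and 8 tRNAs lie on the minus strand.

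Several mitochondrial mRNAs have near-identical copies in the nuclear genome, and the sequences show how little separates them. Each is given 5′ to 3′ as DNA from the GENCODE M21 transcripts. The first pair is shown because 1 of 345 compared bases distinguishes mt-Nd3 from its copy Gm28438. Its difference, in capitals, is T3C, counted from 1 at the 5′ end of mt-Nd3.
mt-Nd3, chrM:9459-9498, plus strand: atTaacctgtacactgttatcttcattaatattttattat
Gm28438, chr1:24613080-24613119, minus strand: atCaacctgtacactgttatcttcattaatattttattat

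The second pair shows the start of the stretch of mt-Co1 that Gm29216 repeats, with the mismatches in capitals. Over 492 compared bases there were 6 mismatches, all within this stretch: T1056A, C1057T, A1059G, A1060G, C1062A and A1066T, counted from 1 at the 5′ end of mt-Co1. The rest of the copy could not be told from mt-Co1 by a read.
mt-Co1, chrM:6381-6420, plus strand: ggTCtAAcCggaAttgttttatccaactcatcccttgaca
Gm29216, chr1:24616158-24616197, minus strand: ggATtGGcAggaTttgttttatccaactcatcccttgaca

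The whole of mt-Nd4l is shown because 294 of its 297 bases are repeated in Gm10222 with 0 mismatches. The capitals mark the only bases outside the copy, the stop codon.
mt-Nd4l, chrM:9877-10173, plus strand: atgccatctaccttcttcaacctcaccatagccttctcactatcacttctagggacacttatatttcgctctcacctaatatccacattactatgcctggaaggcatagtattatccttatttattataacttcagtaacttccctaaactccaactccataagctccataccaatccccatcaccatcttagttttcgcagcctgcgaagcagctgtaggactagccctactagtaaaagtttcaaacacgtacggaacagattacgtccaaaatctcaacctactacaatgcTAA

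Neighbouring mitochondrial genes also share bases. The last 43 bases of mt-Atp8 are the first 43 of mt-Atp6, whose start codon is in capitals. The last 14 bases of mt-Nd5, in capitals, are complementary to the end of mt-Nd6 on the other strand. The kit name in the labels, Illumina TruSeq RNA, is not taken here to settle whether strand was marked. A tRNA, mt-Tm for methionine, is shown whole with its anticodon in capitals, as an example of the shortest transcripts.
mt-Atp8 end and mt-Atp6 start, chrM:7927-7969, plus strand: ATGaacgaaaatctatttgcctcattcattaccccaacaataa
mt-Nd5 end, chrM:13536-13565, plus strand: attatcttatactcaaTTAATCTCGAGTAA
mt-Tm, chrM:3845-3913, plus strand: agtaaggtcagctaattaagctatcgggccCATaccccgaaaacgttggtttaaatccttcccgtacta

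The deposited values are TPM, in which reads are divided by gene length and scaled to a fixed total per library, so sequencing depth is unknown. Of all genes, 13759 averaged 1 TPM or more and were tested with limma on log2(TPM + 1), and 45.1% of them passed an adjusted p of 0.05 (6199 genes, and 4101 without SLC43A2 sgRNA replicate 3). The targeted Slc43a2 stood at 3.5, 2.4 and 4.15 TPM in SLC43A2 sgRNA and 6.68, 4.18 and 4.79 TPM in Mock sgRNA and did not pass (log2 change -0.52, limma adjusted p = 0.113). The groups differed in more than the guide: 4 Y-linked genes summed to 1.96 to 2.85 TPM in SLC43A2 sgRNA and 78.5 to 93.3 TPM in Mock sgRNA, so the guide and a difference in the sex of the cells cannot be told apart. T cell markers, led by Trbc2, were abundant in both groups, summing to 9048 to 9549 TPM in SLC43A2 sgRNA and 10178 to 11724 TPM in Mock sgRNA. Of 14 tested 2 rose (14.3%) and 3 fell (21.4%), where 22.8% of all genes tested rose and 22.2% fell. The extraction text in the labels speaks of retinas, whereas photoreceptor markers, led by Gnat1, summed to 5.41 to 12.5 TPM in SLC43A2 sgRNA and 5.88 to 10.5 TPM in Mock sgRNA.

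Of the mitochondrial transcripts with values, both rRNAs and 7 of the 13 mRNAs fell in SLC43A2 sgRNA and 0 rose with limma, where 22.2% of all genes tested fell and 22.8% rose. At an unadjusted p under 0.05, 0 rose as well. In 1 of the 20 alternatives, which removes trends with transcript length and GC, mt-Nd1 and mt-Atp8 rose. The 13 mRNAs and 2 rRNAs passed the filter on low values and the 22 tRNAs did not. The median log2 change was -2.11 over the 2 rRNAs and -0.80 over the 13 mRNAs, beside 0.03 over all genes tested. The mRNA median was -0.45 without SLC43A2 sgRNA replicate 2 and -0.20 with trends with length and GC removed. For 11 of the 15 the libraries of the groups did not overlap, with SLC43A2 sgRNA lower in each, where 28.3% of all genes tested were separated in that direction and 28.7% in the other.

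**Figure D1:**
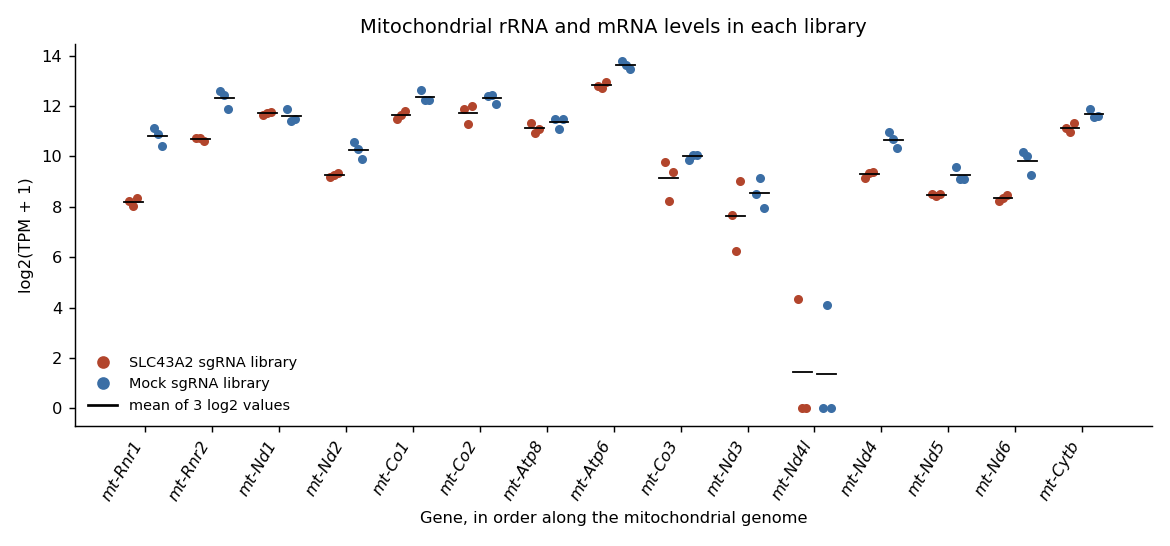
Levels of the 15 measured mitochondrial transcripts as log2(TPM + 1), in gene order along the genome; each point is a library, with SLC43A2 sgRNA left of Mock sgRNA, and the black line is the mean of 3 log2 values. The 3 SLC43A2 sgRNA points lie below the 3 Mock sgRNA points for 11 genes, and mt-Nd1, mt-Atp8, mt-Nd3 and mt-Nd4l overlap.

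The rRNAs showed the largest falls of the 15. The small-subunit rRNA mt-Rnr1 (chromosome M, 70 to 1024) stood at 297, 264 and 326 TPM in SLC43A2 sgRNA, in the order of the replicate numbers as throughout, and at 2243, 1888 and 1351 TPM in Mock sgRNA. Its mean was 296 ± 31.0 TPM in SLC43A2 sgRNA and 1827 ± 449 TPM in Mock sgRNA (SD, n = 3 each), a level 6.18-fold lower in SLC43A2 sgRNA (log2 change -2.60, SE 0.19, limma adjusted p = 0.00016). The large-subunit rRNA mt-Rnr2 (1094 to 2675) stood at 1697, 1708 and 1549 TPM in SLC43A2 sgRNA and at 6244, 5551 and 3814 TPM in Mock sgRNA. This was 3.15-fold lower in SLC43A2 sgRNA (log2 change -1.63, SE 0.18, limma adjusted p = 0.00083). The groups were far apart for both rRNAs, and in both the lowest Mock sgRNA library was replicate 3. Both calls held in all 20 alternatives.

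The 2 rRNAs did not fall equally. Their TPM ratio, mt-Rnr2 over mt-Rnr1, was 5.71, 6.47 and 4.75 in SLC43A2 sgRNA and 2.78, 2.94 and 2.82 in Mock sgRNA, with no overlap. Such a ratio within a library does not depend on how the library is scaled. Summed, the rRNAs made up 0.199%, 0.197% and 0.188% of TPM in SLC43A2 sgRNA and 0.849%, 0.744% and 0.517% in Mock sgRNA. Set against the 13 mRNAs of the same library, rRNA came to 8.12, 8.90 and 6.96 TPM per 100 TPM of mRNA in SLC43A2 sgRNA and to 19.8, 20.0 and 15.2 in Mock sgRNA. This averaged 7.99 ± 0.977 in SLC43A2 sgRNA and 18.3 ± 2.71 in Mock sgRNA (SD, n = 3 each). The labels do not say how rRNA was removed or whether RNA was chosen by its poly(A) tail, and the part of that step in these ratios was not tested. Other RNAs outside the protein-coding class moved too: small nuclear and nucleolar RNAs made up 1.04% ± 0.0700 of SLC43A2 sgRNA and 3.15% ± 0.677 of Mock sgRNA libraries, and the nuclear RNA Malat1 0.417% ± 0.0867 in SLC43A2 sgRNA and 1.09% ± 0.135 in Mock sgRNA. Nuclear rRNA genes made up 0.261% ± 0.0920 of SLC43A2 sgRNA and 0.607% ± 0.271 of Mock sgRNA libraries, and their groups overlapped. Their part in the mitochondrial rRNA result was not tested.

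**Figure D2:**
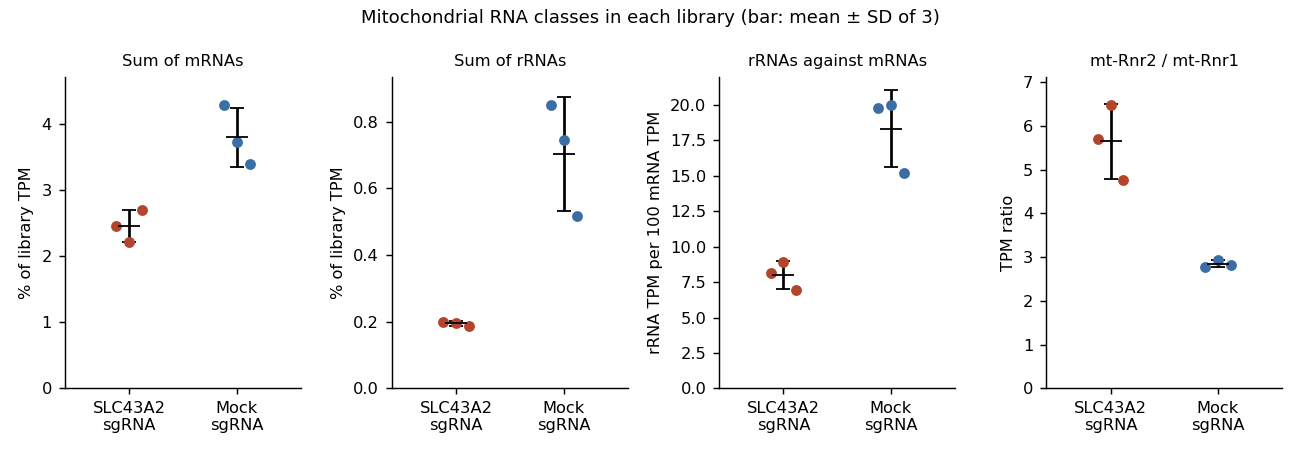
Summed mitochondrial mRNAs and rRNAs as a percentage of library TPM, rRNA TPM per 100 mRNA TPM, and the TPM ratio of mt-Rnr2 to mt-Rnr1; points are libraries and bars the mean ± SD of 3. The groups do not overlap in any panel, and only the ratio of the rRNAs is higher in SLC43A2 sgRNA.

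Complex I (NADH dehydrogenase), which passes electrons from NADH into the chain, has 7 mitochondrially encoded subunits, of which 4 fell. The transcript of its subunit mt-Nd4 (10167 to 11544) stood at 561, 640.4 and 672 TPM in SLC43A2 sgRNA and at 2026, 1642 and 1288 TPM in Mock sgRNA (log2 change -1.38, SE 0.18, limma adjusted p = 0.0014). The groups were separated, at 624 ± 57.4 TPM in SLC43A2 sgRNA and 1652 ± 369 TPM in Mock sgRNA (SD, n = 3 each). For mt-Nd2 (3914 to 4951) the values were 582, 609 and 642 TPM in SLC43A2 sgRNA and 1533, 1273 and 956 TPM in Mock sgRNA (log2 change -1.01, SE 0.17, limma adjusted p = 0.0043). Again no SLC43A2 sgRNA library reached the lowest Mock sgRNA library.

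The mRNA mt-Nd6 (13552 to 14070) is the only one encoded on the minus strand. It stood at 296, 329.9 and 350.4 TPM in SLC43A2 sgRNA and at 1149, 1050.4 and 611 TPM in Mock sgRNA, 2.88-fold lower in SLC43A2 sgRNA (log2 change -1.47, SE 0.24, limma adjusted p = 0.0033), the largest fall among the mRNAs. Its neighbour on the plus strand, mt-Nd5 (11742 to 13565), stood at 359, 339.9 and 359 TPM in SLC43A2 sgRNA and at 766, 550.0 and 546 TPM in Mock sgRNA (log2 change -0.80, SE 0.15, limma adjusted p = 0.0061). If the libraries do not mark strand, reads of precursor RNA from the opposite strand could count toward either gene, and their share is not known. Each of these 4 falls held in all 20 alternatives. The part of any selection of RNA by its poly(A) tail in the mt-Nd6 fall was not tested.

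The first gene after the rRNAs behaved otherwise. The mt-Nd1 mRNA (2751 to 3707) stood at 3195, 3380.2 and 3500.5 TPM in SLC43A2 sgRNA and at 3759, 2729.9 and 2889 TPM in Mock sgRNA. The groups overlapped and the change did not pass (log2 change 0.12, SE 0.13, limma adjusted p = 0.497). As a share of the 13 mRNAs it was 13.0%, 15.3% and 13.0% in SLC43A2 sgRNA and 8.77%, 7.33% and 8.49% in Mock sgRNA, with no overlap, while mt-Nd4 made up 2.28%, 2.89% and 2.49% in SLC43A2 sgRNA and 4.73%, 4.41% and 3.79% in Mock sgRNA. The mt-Rnr2 gene lies just upstream, with a tRNA between, and the ratio of mt-Rnr2 to mt-Nd1 was 0.531, 0.505 and 0.443 in SLC43A2 sgRNA and 1.66, 2.03 and 1.32 in Mock sgRNA. With trends of change with transcript length and GC removed over all genes, mt-Nd1 stood 0.60 higher on the log2 scale (limma adjusted p = 0.00999), and with libraries scaled to nuclear protein-coding transcripts its change was -0.07.

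The remaining complex I transcripts, mt-Nd3 and mt-Nd4l, are short and their values divide with the nuclear copies. For mt-Nd3 (9459 to 9806) the values were 201, 74.3 and 517 TPM in SLC43A2 sgRNA and 366, 566 and 248 TPM in Mock sgRNA, with wide overlap (log2 change -0.91, SE 0.67, limma adjusted p = 0.304). That value depended on single libraries: it was -0.21 without SLC43A2 sgRNA replicate 2, -0.60 without Mock sgRNA replicate 2 and -1.60 without SLC43A2 sgRNA replicate 3. The mt-Nd4l row (9877 to 10173) was listed at 0 in 4 libraries and held 19.3 TPM in SLC43A2 sgRNA replicate 1 and 16.3 TPM in Mock sgRNA replicate 2.

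Complex III, which hands electrons to cytochrome c, has a single mitochondrially encoded subunit, cytochrome b. Its transcript mt-Cytb (14145 to 15288) stood at 2249, 2023 and 2547 TPM in SLC43A2 sgRNA and at 3783, 2997 and 3103 TPM in Mock sgRNA (log2 change -0.53, SE 0.13, limma adjusted p = 0.0156). The groups did not overlap. This fall is the least firm of the 9: it missed the threshold in 5 of the 20 alternatives, over which the adjusted p ran from 0.0059 to 0.292. Without Mock sgRNA replicate 1 it was 0.0712 and without SLC43A2 sgRNA replicate 1 it was 0.0648.

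Complex IV (cytochrome c oxidase), which passes electrons to oxygen, has 3 mitochondrially encoded subunits. The catalytic subunit's transcript mt-Co1 (5328 to 6872) stood at 2865, 3194 and 3531 TPM in SLC43A2 sgRNA and at 6292, 4788 and 4795 TPM in Mock sgRNA and fell (log2 change -0.72, SE 0.14, limma adjusted p = 0.0065). Its groups were well apart. For mt-Co2 (7013 to 7696), whose product takes up electrons from cytochrome c, the values were 3729, 2514 and 4145 TPM in SLC43A2 sgRNA and 5347, 5596 and 4349.8 TPM in Mock sgRNA (log2 change -0.58, SE 0.20, limma adjusted p = 0.0505). Its groups did not overlap but the test lay at the threshold, and 5 of the 20 alternatives passed it. The third, mt-Co3 (8607 to 9390), stood at 876, 302 and 667 TPM in SLC43A2 sgRNA and at 938, 1079.7 and 1066 TPM in Mock sgRNA and did not pass (log2 change -0.87, SE 0.36, limma adjusted p = 0.0892). It passed without SLC43A2 sgRNA replicate 1 (-1.19, limma adjusted p = 0.0444) and was -0.42 without SLC43A2 sgRNA replicate 2.

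Complex V (ATP synthase) has 2 mitochondrially encoded subunits in its membrane part, carried by a shared mRNA. The mt-Atp6 row (7927 to 8607) was the most abundant of the 37 in every library, at 7089.95, 6792 and 7842 TPM in SLC43A2 sgRNA and 14038, 12805 and 11254 TPM in Mock sgRNA. Its mean was 7241 ± 541 TPM in SLC43A2 sgRNA and 12699 ± 1395 TPM in Mock sgRNA (SD, n = 3 each; log2 change -0.81, SE 0.11, limma adjusted p = 0.0016). After quantile normalization, which sets each library to the same distribution of values, its change was 0.01, and with length and GC trends removed it was -0.11 and did not pass (limma adjusted p = 0.473). The mt-Atp8 row (7766 to 7969) stood at 2542, 1955 and 2180.2 TPM in SLC43A2 sgRNA and at 2866, 2174 and 2906 TPM in Mock sgRNA. Those groups overlapped and the change did not pass (log2 change -0.25, SE 0.15, limma adjusted p = 0.225), though it was 0.79 higher in SLC43A2 sgRNA with length and GC trends removed (limma adjusted p = 0.0249). Although these genes share a transcript, the ratio of mt-Atp6 to mt-Atp8 was 2.79, 3.47 and 3.60 in SLC43A2 sgRNA and 4.90, 5.89 and 3.87 in Mock sgRNA. The mt-Atp8 gene is 204 bases long, and 43 of these also belong to mt-Atp6.

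**Figure D3:**
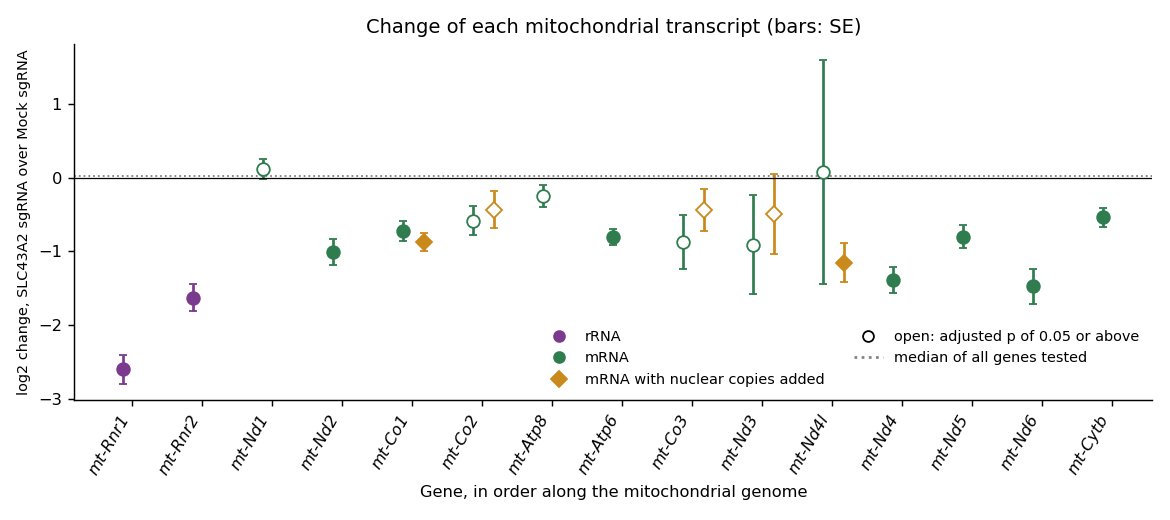
Log2 change of each measured mitochondrial transcript, SLC43A2 sgRNA over Mock sgRNA, with its SE, in gene order; circles are the rows as deposited, diamonds the rows with the nuclear copy added, and filled symbols passed an adjusted p of 0.05. The rRNAs lie lowest, at -2.60 and -1.63, mt-Nd1 lies at 0.12, and adding the copies takes mt-Nd4l to -1.15 with an SE of 0.27.

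Summed over the 13 mRNAs, the mitochondrial share of library TPM was 2.46%, 2.22% and 2.70% in SLC43A2 sgRNA and 4.29%, 3.73% and 3.40% in Mock sgRNA. The share averaged 2.46% ± 0.240 in SLC43A2 sgRNA and 3.80% ± 0.448 in Mock sgRNA (SD, n = 3 each), with no overlap. The mRNAs differed widely among themselves in level, from the near-empty mt-Nd4l row to mt-Atp6, which made up 28.9%, 30.7% and 29.1% of the mRNA sum in SLC43A2 sgRNA and 32.7%, 34.4% and 33.1% in Mock sgRNA. A share of TPM moves with everything else in the library. Protein-coding genes made up 86.6% ± 0.338 of SLC43A2 sgRNA and 77.9% ± 1.13 of Mock sgRNA libraries.

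In bulk RNA, fewer cells of a type and less RNA per cell cannot be told apart, and markers of several cell types moved with the mitochondrial transcripts. The counts of falls below stand beside 22.2% of all genes tested that fell and 22.8% that rose. B cell markers, led by Cd79a, summed to 24.1 to 25.1 TPM in SLC43A2 sgRNA and 293 to 380 TPM in Mock sgRNA, and 7 of 7 tested fell. Plasma cell markers, led by Igkc, summed to 762 to 868 TPM in SLC43A2 sgRNA and 21965 to 23402 TPM in Mock sgRNA, and 5 of 6 fell. Macrophage and monocyte markers, led by Ly6c2, summed to 312 to 331 TPM in SLC43A2 sgRNA and 1810 to 2155 TPM in Mock sgRNA, and 10 of 10 fell. Neutrophil markers, led by S100a8, summed to 102 to 124 TPM in SLC43A2 sgRNA and 447 to 630 TPM in Mock sgRNA (6 of 6 fell), and erythroid markers, led by Hbb-bs, to 40.6 to 51.6 TPM in SLC43A2 sgRNA and 955 to 1121 TPM in Mock sgRNA (6 of 6 fell). Of the NK cell markers 5 of 6 fell, while their sum, set by Nkg7, was 3340 to 4376 TPM in SLC43A2 sgRNA and 2761 to 3266 TPM in Mock sgRNA. Dendritic cell markers, led by Zbtb46, summed to at most 2.93 TPM in SLC43A2 sgRNA and 6.08 TPM in Mock sgRNA, and endothelial markers, led by Pecam1, to at most 7.40 TPM in SLC43A2 sgRNA and 19.6 TPM in Mock sgRNA. Hepatocyte markers, led by Afp, summed to 3.86 to 6.63 TPM in SLC43A2 sgRNA and 6.24 to 8.55 TPM in Mock sgRNA, with Alb, Ttr, Serpina1a and Ahsg at 0 throughout, and fibroblast markers, led by Pdgfra, stood at or below 0.12 TPM in either group. The part of any cell type in the mitochondrial result was not tested.

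The tRNAs gave no values. All 22, which are 59 to 75 bases long, were listed at 0 in all 6 libraries, so the data say nothing of their levels in either group. The same held for every short gene in the table: of 1217 genes whose longest transcript is at most 90 bases, 0 had a value above 0 in any library. The shortest gene with a value was 93 bases long, and 6 of 255 genes of 91 to 100 bases (2.35%) and 166 of 1916 genes of 101 to 150 bases (8.66%) had one.

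The near-identical nuclear copies bear directly on 5 of the mRNAs. A search of the annotated transcripts found 7 such copies (at least 99% identity over at least 90% of the copy), all unprocessed pseudogenes within 4663 bases of chromosome 1 (GRCm38, 24611535 to 24616197, minus strand). Their order follows the mitochondrial genome. Gm29216 repeats the last part of mt-Co1, Gm28661 mt-Co2, Gm10925 mt-Atp6, Gm28437 mt-Co3, Gm28438 mt-Nd3, Gm10222 mt-Nd4l and Gm28439 the first part of mt-Nd4. The copies together held 1.35% ± 0.304 of library TPM in SLC43A2 sgRNA and 2.17% ± 0.345 in Mock sgRNA, although a read of their shared bases fits either place. How the authors' counting divided such reads is not given in the sources used here.

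The division differed from pair to pair. In mt-Co3 and Gm28437 the nuclear copy took 85.2% to 93.2% of the length-weighted TPM in each library, and in mt-Nd4l and Gm10222 nearly all. Gm10925 and Gm28439 were listed at 0 in all 6 libraries, so the table divides no TPM between them and mt-Atp6 or mt-Nd4. For mt-Co2 the share of Gm28661 was 7.92%, 1.67% and 19.2% in SLC43A2 sgRNA and at most 0.248% in Mock sgRNA.

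Gm28661 stood at 322, 42.9 and 989.7 TPM in SLC43A2 sgRNA and at 0.32, 0.08 and 10.85 TPM in Mock sgRNA, the only copy that rose (log2 change 6.56, SE 1.31, limma adjusted p = 0.0073). Its 681 bases are identical to mt-Co2, which did not pass itself. Gm29216 stood at 4888, 5866 and 5128 TPM in SLC43A2 sgRNA and 12742, 11534 and 10114 TPM in Mock sgRNA and fell (log2 change -1.11, SE 0.12, limma adjusted p = 0.00062), as mt-Co1 did. Gm10222 fell as well, at 459.7, 291 and 574 TPM in SLC43A2 sgRNA and 1138, 988 and 768 TPM in Mock sgRNA (log2 change -1.16, SE 0.27, limma adjusted p = 0.0121). That call was lost without Mock sgRNA replicate 1 or 2 (adjusted p = 0.0641 and 0.0545) and with length and GC trends removed (0.225). Gm28437, at 6409.5, 4143 and 8777 TPM in SLC43A2 sgRNA and 8517, 10073 and 6149.6 TPM in Mock sgRNA, and Gm28438, at 929, 323 and 1231 TPM in SLC43A2 sgRNA and 908, 1371 and 638 TPM in Mock sgRNA, did not pass (limma adjusted p = 0.311 and 0.581). Both overlapped between the groups and followed mt-Co3 and mt-Nd3 in having their lowest value in SLC43A2 sgRNA replicate 2.

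**Figure D4:**
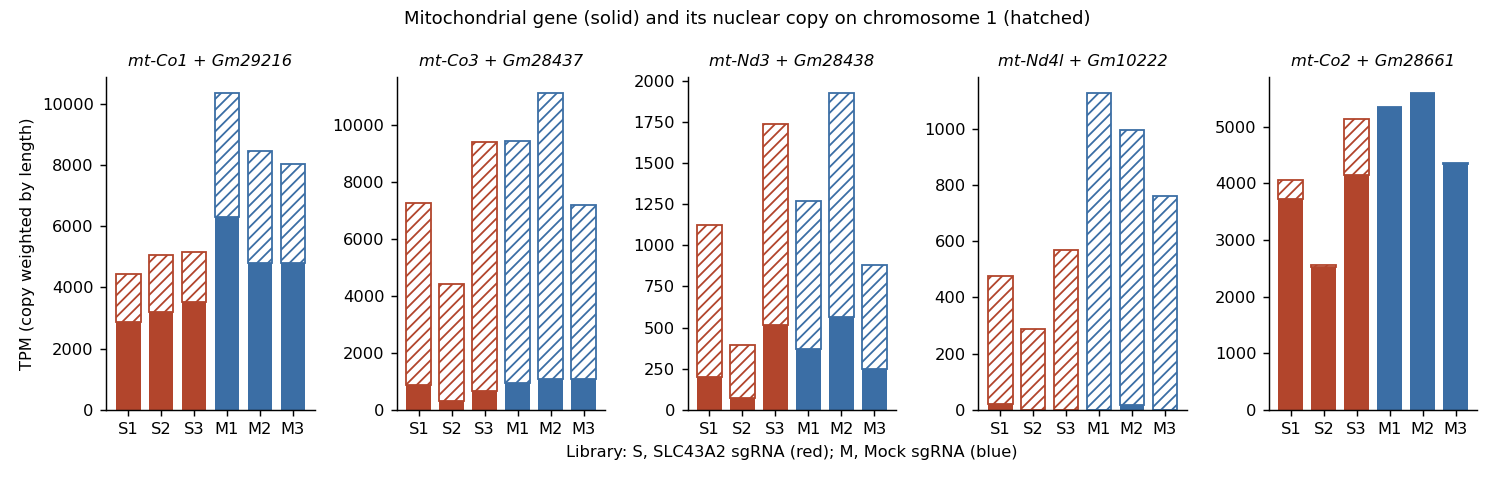
TPM of 5 mitochondrial mRNAs (solid) with their nuclear copy weighted by length stacked on top (hatched), in SLC43A2 sgRNA libraries S1 to S3 and Mock sgRNA libraries M1 to M3. The copy holds most of the total for mt-Co3, mt-Nd3 and mt-Nd4l, and the hatched part of mt-Co2 is visible in SLC43A2 sgRNA and not in Mock sgRNA.

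With each copy added to its mitochondrial gene, a step chosen after the data were seen, 8 mRNAs and both rRNAs fell and 0 rose, where 22.2% of genes fell and 22.8% rose in that fit. The added call was mt-Nd4l, at 474, 288 and 568 TPM in SLC43A2 sgRNA and 1127, 994 and 759.8 TPM in Mock sgRNA (log2 change -1.15, SE 0.27, limma adjusted p = 0.0130). The mt-Co1 total stood at 4883 ± 403 TPM in SLC43A2 sgRNA and 8942 ± 1239 TPM in Mock sgRNA (SD, n = 3 each; log2 change -0.87, limma adjusted p = 0.0019). The totals of mt-Co2, mt-Co3 and mt-Nd3 overlapped between the groups and did not pass (log2 changes -0.43, -0.44 and -0.49, limma adjusted p = 0.196, 0.250 and 0.483). The mt-Co3 total, at 7050 ± 2505 TPM in SLC43A2 sgRNA and 9264 ± 1972 TPM in Mock sgRNA, had the second highest group mean after mt-Atp6 in both groups, though not in every library, where it stood above mt-Atp6 in SLC43A2 sgRNA replicates 1 and 3 and below mt-Co1 in SLC43A2 sgRNA replicate 2 and Mock sgRNA replicates 1 and 3. The deposited mt-Co3 row stood at 615 ± 291 TPM in SLC43A2 sgRNA and 1028 ± 78.3 TPM in Mock sgRNA. Counted with their copies, the 13 mRNAs made up 3.42%, 2.88% and 4.01% of TPM in SLC43A2 sgRNA and 5.75%, 5.33% and 4.48% in Mock sgRNA.

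The proteins that transcribe, cut, modify and degrade mitochondrial RNA are encoded in the nucleus. Their genes were listed with those of mitochondrial DNA replication and with nuclear regulators of mitochondrial biogenesis, and of the 75 listed genes 74 were tested. Of these 34 rose (45.9%), 4 fell (5.41%) and 36 did not pass, where 22.8% of all genes tested rose and 22.2% fell. The median log2 change was 0.47, beside 0.03 over all genes tested. The count of rises was 17 without SLC43A2 sgRNA replicate 1 or 3, 21 without Mock sgRNA replicate 2 and 22 without Mock sgRNA replicate 1, and 20 with libraries scaled to nuclear protein-coding transcripts. Falls numbered 1 without Mock sgRNA replicate 1 or 2 or SLC43A2 sgRNA replicate 1, and 2 without SLC43A2 sgRNA replicate 2 or 3. Polrmt, the mitochondrial RNA polymerase, was among those that fell, at 17.6 ± 1.17 TPM in SLC43A2 sgRNA and 26.5 ± 4.01 TPM in Mock sgRNA (SD, n = 3 each; log2 change -0.56, limma adjusted p = 0.0229). That call was lost in 7 of the 20 alternatives, 5 of which leave out 1 library each (Mock sgRNA replicates 1 and 2 and SLC43A2 sgRNA replicates 1, 2 and 3; adjusted p of 0.0509 to 0.0683). Of the 11 transcription genes, Polrmt included, 2 rose: Mterf3, a repressor of mitochondrial transcription in mouse, by 0.54, and Mrpl12, a ribosomal protein that also binds Polrmt, by 0.70 on the log2 scale. Each was lost in 3 alternatives, Mterf3 without SLC43A2 sgRNA replicate 1 or 3 and Mrpl12 without Mock sgRNA replicate 1 or 2 or SLC43A2 sgRNA replicate 3.

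Of 12 genes of mitochondrial DNA replication 3 rose and 2 fell (25.0% and 16.7%), shares near those of all genes tested, 22.8% and 22.2%. Those named are Top1mt, the mitochondrial topoisomerase (log2 change 1.39), the nuclease Mgme1 (0.90), and Dguok and Rrm2b, which supply deoxynucleotides (-0.62 and -0.53). The Rrm2b call was lost in 6 of the 20 alternatives, among them those without Mock sgRNA replicate 1 or 2 or SLC43A2 sgRNA replicate 1 or 3 (adjusted p of 0.0705 to 0.113), and the Mgme1 call without SLC43A2 sgRNA replicate 3 (0.0549). All 6 called genes of RNA cleavage and end processing, of 8, rose, among them Elac2, which cuts the 3′ ends of the tRNAs (1.18), and Prorp, the nuclease subunit that cuts their 5′ ends (0.99). Of 7 stability and decay genes 4 rose and 0 fell, including the degradosome parts Pnpt1, an exoribonuclease (1.18), and Supv3l1, a helicase (0.74). Pnpt1 stood at 33.4 ± 6.45 TPM in SLC43A2 sgRNA and 14.0 ± 1.95 TPM in Mock sgRNA (SD, n = 3 each; limma adjusted p = 0.0031). Without SLC43A2 sgRNA replicate 1 or 3 the calls of Elac2 and Supv3l1 were lost, that of Supv3l1 also without Mock sgRNA replicate 2 or 3 and in 2 other alternatives.

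FASTK and PPR proteins bind mitochondrial RNAs, and 6 of 9 rose, where 22.8% of all genes tested rose and 22.2% fell. Among the 6 were Ptcd3 (0.84) and Fastk (0.83, limma adjusted p = 0.0499, at the threshold). The Fastk call was lost in 9 of the 20 alternatives, with every library left out but Mock sgRNA replicate 2. Of 21 genes of rRNA and tRNA modification 10 rose and 0 fell, with Cdk5rap1 (1.11) and Yrdc (0.92), both tRNA-modifying enzymes, the largest. Of 6 tested regulators of mitochondrial biogenesis 3 rose and 1 fell: Gabpb1 (1.31) and Gabpa (0.89), subunits of the factor GABP, rose, and the coactivator Ppargc1b stood at 1.18 ± 0.442 TPM in SLC43A2 sgRNA and 2.64 ± 0.565 TPM in Mock sgRNA (-0.75, limma adjusted p = 0.0402). The Ppargc1b call was lost in 9 of the 20 alternatives (adjusted p of 0.0653 to 0.226), among them those without Mock sgRNA replicate 1 or 2 or SLC43A2 sgRNA replicate 1 or 2, and its change was -0.35 after quantile normalization.

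Of 77 nuclear genes for subunits of the same complexes 76 were tested. Of these 42 rose (55.3%), 1 fell (1.32%) and 33 did not pass, where 22.8% of all genes tested rose and 22.2% fell, and the median log2 change was 0.43. In complex I 20 of 37 rose, including Ndufb8 (0.99) and Ndufa10 (0.87), and in complex III 7 of 9, including Uqcrc1 (1.15) and Cyc1 (0.95), whose call was lost in 4 alternatives, without Mock sgRNA replicate 1 or SLC43A2 sgRNA replicate 1 or 3 among them. In complex IV 5 of 13 tested rose, including Cox6b1 (0.44) and Cox7a2 (0.42), and Cox7a2l, a factor of supercomplex assembly, fell (-0.56). The calls of Cox6b1 and Cox7a2 were each lost in 8 of the 20 alternatives. With libraries scaled to nuclear protein-coding transcripts their changes were 0.26 and 0.24 (limma adjusted p = 0.149 and 0.217). Without Mock sgRNA replicate 1 or 3 or SLC43A2 sgRNA replicate 3 both were lost, as was Cox6b1 without Mock sgRNA replicate 2 and Cox7a2 without SLC43A2 sgRNA replicate 2. Of 17 complex V genes 10 rose, including Atp5f1a (1.00) and Atp5f1b (0.78), the subunits of its catalytic head. The count of rises was 25 with libraries scaled to nuclear protein-coding transcripts, 26 with no filter on low values, 19 without Mock sgRNA replicate 1 and 25 without SLC43A2 sgRNA replicate 3.

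**Figure D5:**
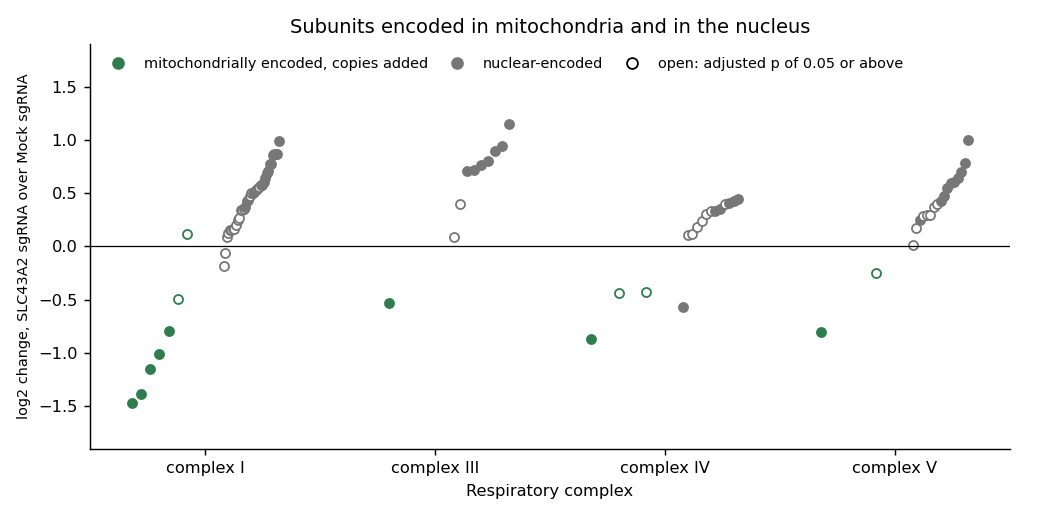
Log2 change, SLC43A2 sgRNA over Mock sgRNA, of each tested subunit of 4 respiratory complexes, mitochondrially encoded with nuclear copies added (green) and nuclear-encoded (grey); filled symbols passed an adjusted p of 0.05. Filled green symbols all lie below 0, and filled grey symbols lie above 0 but for Cox7a2l at -0.56.

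The balance between the genomes was set out within each library, where scaling of the library cancels. Trends with transcript length and GC do not cancel, and these ratios were not recomputed with such trends removed. Their removal took the median mitochondrial mRNA change from -0.80 to -0.20. Over the 4 complexes, the mitochondrially encoded mRNAs came to 48.8, 36.6 and 52.4 TPM per 100 TPM of nuclear-encoded subunits in SLC43A2 sgRNA and to 114, 89.8 and 83.9 in Mock sgRNA. The ratio averaged 45.9 ± 8.27 in SLC43A2 sgRNA and 95.9 ± 16.0 in Mock sgRNA (SD, n = 3 each), and with the nuclear copies added the values were 67.9, 47.6 and 78.0 in SLC43A2 sgRNA and 153, 128 and 111 in Mock sgRNA. By complex, the same ratio was 31.3 ± 5.44 in SLC43A2 sgRNA and 61.9 ± 15.0 in Mock sgRNA for complex I, and 31.8 ± 7.31 in SLC43A2 sgRNA and 70.3 ± 14.5 in Mock sgRNA for complex III. It was 61.0 ± 14.8 in SLC43A2 sgRNA and 115 ± 14.1 in Mock sgRNA for complex IV, and 56.8 ± 5.56 in SLC43A2 sgRNA and 126 ± 18.8 in Mock sgRNA for complex V. The groups overlapped in none of the 4 complexes. With the copies added, the complex IV ratio was 133 ± 40.7 in SLC43A2 sgRNA and 235 ± 29.7 in Mock sgRNA, without overlap. The mitochondrially encoded sum of complex IV then overlapped, at 15845 ± 3836 TPM in SLC43A2 sgRNA and 23307 ± 3224 TPM in Mock sgRNA. As deposited, both terms of the ratio over the 4 complexes differed: the nuclear-encoded sum was 54120 ± 5582 TPM in SLC43A2 sgRNA and 39876 ± 2037 TPM in Mock sgRNA.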

How the data were processed

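The authors deposited gene-level TPM in a single table of 57180 genes and 6 libraries. The Illumina TruSeq RNA kit was used on total RNA, per the labels' protocols. Bowtie 0.12.2 and the build mm8 are named in the submitters' processing notes, without a role. Which tool counted reads, with which annotation, and what was done with reads that match several places, is not stated in these sources. Groups and replicate numbers come from the titles. TPM keeps no read count, so no depth, interval or floor is given, and a row at 0 is described as listed at 0.

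The two-sided test was that of limma 3.58.1, run in R 4.3.3 (lmFit and trended eBayes, without a replicate block), on log2(TPM + 1) over the 13759 genes (24.1%) with a mean of at least 1 TPM, with Benjamini-Hochberg adjustment over all of them and a threshold of 0.05. The fit was checked on simulated data. Changes on this scale understate those of low genes. With 3 against 3 libraries an exact permutation test cannot go below 0.1, so sums and ratios are described without a test. Lengths, coordinates and transcript sequences come from GENCODE M21 (GRCm38), and coordinates given without a chromosome are on chromosome M. Nuclear copies were sought with BLAST 2.17.0. Adding a copy weights its TPM by annotated length, as effective lengths are not known. Alternatives changed the pseudocount, filter, scaling, length and GC trends, variance model, weights and replicate block, or left out each library in turn.

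The members and the lists were chosen with earlier results of these data known. Named nuclear genes are, per list group, up to 2 of largest rise and 2 of largest fall past the threshold; of each marker list, the most abundant member; and of the nuclear genes sharing mitochondrial sequence, the 3 of highest mean TPM. The other copies, Malat1 and the Y-linked genes were chosen after their values were seen.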

Additional observations from a re-analysis of the deposited data

How the results depend on the processing

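There were 20 alternatives, 19 of them planned and the addition of nuclear copies chosen after seeing the data. Mitochondrial genes called lower numbered 7 to 10 in every alternative, against 9. Single mitochondrial values kept direction and call in 276 cases and reversed direction in 11. Of those that kept direction, 7 gained and 6 lost the call. Some that reversed changed call as well: mt-Atp6 lost its call under quantile normalization. With length and GC trends removed mt-Atp8 gained one, as did mt-Nd4l with copies added. Single values of the named nuclear genes and copies kept direction and call in 560 cases, 5 reversed and 69 lost the call.

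Removing trends with transcript length and GC gave 2 mitochondrial genes called higher, a median mRNA change of -0.20 (-0.80 as reported), and log2 changes of -0.11 for mt-Atp6, 0.015 for mt-Co2, 0.79 for mt-Atp8, 0.071 for mt-Nd3, 0.12 for Gm28437 and 0.59 for Gm28438. Quantile normalization gave a median of -0.57, 0.014 for mt-Atp6, -0.00068 for mt-Nd4l, 0.072 for Gm28437, 2 machinery genes lower and 2 respiratory subunits lower. Array weights gave a median of -0.59, -0.078 for mt-Nd4l and 0.21 for Gm28438. Scaling to nuclear protein-coding transcripts gave -0.82 for the log2 ratio of summed mRNA (-0.63 as reported), -0.068 for mt-Nd1, and 20 machinery genes and 25 subunits higher. Scaling to T cell receptor transcripts gave -0.46 for summed mRNA and 1 machinery gene lower. With no filter 26 subunits were higher. Adding copies gave -1.15 for mt-Nd4l. The cause was not tested in these cases. The median of all genes shifted to -0.13 under nuclear protein-coding scaling, 0.17 under T cell receptor scaling, 0.13 under quantile normalization and 0.19 with a filter at 5 TPM. The share of all calls that were higher was 50.6%, and 37.7%, 62.2%, 58.8% and 60.6% under these.

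Leaving out each library gave 4101 to 5904 called genes of all (6199), 17 to 34 machinery genes higher and 1 to 4 lower, 19 to 34 subunits higher, and a median mRNA change of -0.84 to -0.45, lowest in size without SLC43A2 sgRNA replicate 2. It gave -1.37 to 1.45 for mt-Nd4l (0.08 as reported) and -0.76 to 0.21 for Gm28438 (-0.37), which was above 0 without SLC43A2 sgRNA replicate 2. A fit that leaves a group with 2 libraries has fewer samples.

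Same-numbered libraries did not deviate together (correlations 0.0011, 0.0606 and -0.0313). Pairs of unlike number ran from -0.0551 to 0.0580. The labels name no shared animal or day, and these correlations cannot exclude one. With a replicate block, 6357 genes passed, 9 mitochondrial genes were lower and 0 higher, 34 machinery genes were higher and 3 lower, and 43 subunits were higher. Of the genes named, Ppargc1b lost its call (adjusted p = 0.0717).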
